A study of Mus musculus with 59 samples.

Results

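Expression in the diaphragm of mice with a cachectic melanoma was compared between recombinant Fibcd1 (rFibcd1) and mock injections. The comparison holds 20 of the 59 muscle samples of the series, 10 with rFibcd1 and 10 with mock, taken by their group labels. The animals were female NCI Ath/nude mice, an athymic strain, 4 months old, and all 20 carried the same patient-derived human melanoma line, which causes muscle wasting. The rFibcd1 group received the C-terminal secreted part of mouse Fibcd1, made in insect cells, by intraperitoneal injection on alternate days in the last week, and the mock group received the vehicle, PBS with BSA. A further 19 diaphragm samples, 10 with rFibcd1 and 9 with mock, came from mice of the same strain, sex and age that carried another human melanoma line that does not cause wasting (non-cachectic). These enter the fits below and serve for comparison. Each condition therefore rests on 1 xenograft line, and each library on a part of a diaphragm. The columns of the deposited table carry library names of their own (Dia1, Dia2 and so on) that are not tied to the labelled replicate numbers, so libraries are named by column. The study compared fewer libraries of these groups than the table holds, and which ones it used is not given in the sources used here.

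Fibcd1 is a transmembrane protein with a fibrinogen-like domain whose shed C-terminal part acts as a myokine, a factor that muscle releases and that acts on nearby fibres. The diaphragm is the main muscle of breathing. In cachexia, muscle fibres shrink as ubiquitin ligases, the proteasome and lysosomes degrade their proteins, and glucocorticoids and inflammatory cytokines are known to drive such programs. Interferons, in turn, induce GTPases and guanylate-binding proteins that defend cells against intracellular pathogens, through motifs in their promoters.

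Values are TPM, transcript numbers scaled to one fixed total per library, which keep no trace of sequencing depth. Between 17950 and 19269 genes were above 0 in each of the 20 libraries. The diaphragm libraries fall into 2 states of expression that the processed pseudogene Pcna-ps2 marks, and the comparison was repeated among libraries with Pcna-ps2 above 3 TPM, here called the high state. These were 9 mock and 8 rFibcd1 libraries. The mock library Dia22 and the rFibcd1 libraries Dia11 and Dia14 were below. Summed muscle fibre markers reached 38879 to 77916 TPM with mock and 40539 to 72843 TPM with rFibcd1. The Fibcd1 transcript itself was at most 0.0118 TPM with mock and 0.0117 TPM with rFibcd1, listed at 0 in 8 and 9 of 10 libraries, and the injected protein is not measured by RNA.

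Over all 20 libraries few genes differed. Of 13426 genes tested 6 were called by limma at an adjusted p under 0.05, or 0.0447% (0.0372% higher and 0.00745% lower), and in none did the groups separate. At an unadjusted p under 0.05 6.01% were higher and 4.51% lower. The 6 genes were Ccdc115, Arpp19, Skp1a, Meox1 and Bcl6b, which rose with rFibcd1, and the cathepsin Ctsf, which fell. Fold changes here and below are differences of log2(TPM + 1), which understate the change of genes with low TPM.

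Ccdc115 (chromosome 1, 34436670 to 34439672, GRCm38), which encodes an assembly factor of the proton pump that acidifies lysosomes, ranged over 10.3 to 12.1 TPM (median 10.9) with mock and 12.1 to 16.9 TPM (median 13.8) with rFibcd1 (log2 fold change 0.31, SE 0.054, adjusted p = 0.0171). In 9 of the 10 rFibcd1 libraries it was above the highest mock library. Ctsf (chromosome 19, 4855130 to 4860918), the lysosomal protease cathepsin F, ranged over 32.3 to 45.1 TPM (median 38.6) and 25.6 to 44.6 TPM (median 28.7) (log2 fold change -0.33, SE 0.067, adjusted p = 0.0437). Of the rFibcd1 libraries 9 were below the lowest mock library, and Dia3, at 44.6 TPM, lay near the highest mock library. Of the 14 members of the cathepsin list it was the only one called (adjusted p = 0.0793 with median-ratio scaling), with 2 others higher at an unadjusted p under 0.05 and a list median of 0.26, against 0.035 over all genes tested.

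Skp1a (chromosome 11, 52231995 to 52246858), the adaptor that joins F-box proteins to the cullin of SCF ubiquitin ligases, was at 105 to 131 TPM (median 122) with mock and 128 to 173 TPM (median 142) with rFibcd1 (log2 fold change 0.24, SE 0.047, adjusted p = 0.0437). Arpp19 (chromosome 9, 75037614 to 75060313), a phosphoprotein that inhibits protein phosphatase 2A, was at 22.6 to 26.2 TPM (median 24.6) and 25.2 to 32.7 TPM (median 29.6) (log2 fold change 0.24, SE 0.050, adjusted p = 0.0437). For both, 8 of 10 rFibcd1 libraries were above the highest mock library. Mock library Dia20 held the lowest Skp1a, apart from the other 9.

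Meox1, a homeobox factor of somite and muscle progenitor development, was at 2.49 to 7.13 TPM (median 4.91) with mock and 4.52 to 30.0 TPM (median 10.7) with rFibcd1 (log2 fold change 1.05, SE 0.21, adjusted p = 0.0437), and 7 rFibcd1 libraries were above the highest mock library. Bcl6b (chromosome 11, 70224128 to 70229798), a transcriptional repressor used as an endothelial marker, was at 1.64 to 7.03 TPM (median 2.21) and 3.19 to 9.36 TPM (median 6.24) (log2 fold change 0.94, SE 0.18, adjusted p = 0.0384). The mock libraries Dia20 and Dia22 (7.03 and 5.10 TPM) lay within the rFibcd1 range. None of the other endothelial markers was called, 3 of the 18 were lower at an unadjusted p under 0.05, and the sum of the list was 483 to 765 TPM with mock and 498 to 746 TPM with rFibcd1. In muscle tissue, fewer cells of a type and less RNA per cell cannot be told apart.

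**Figure D1:**
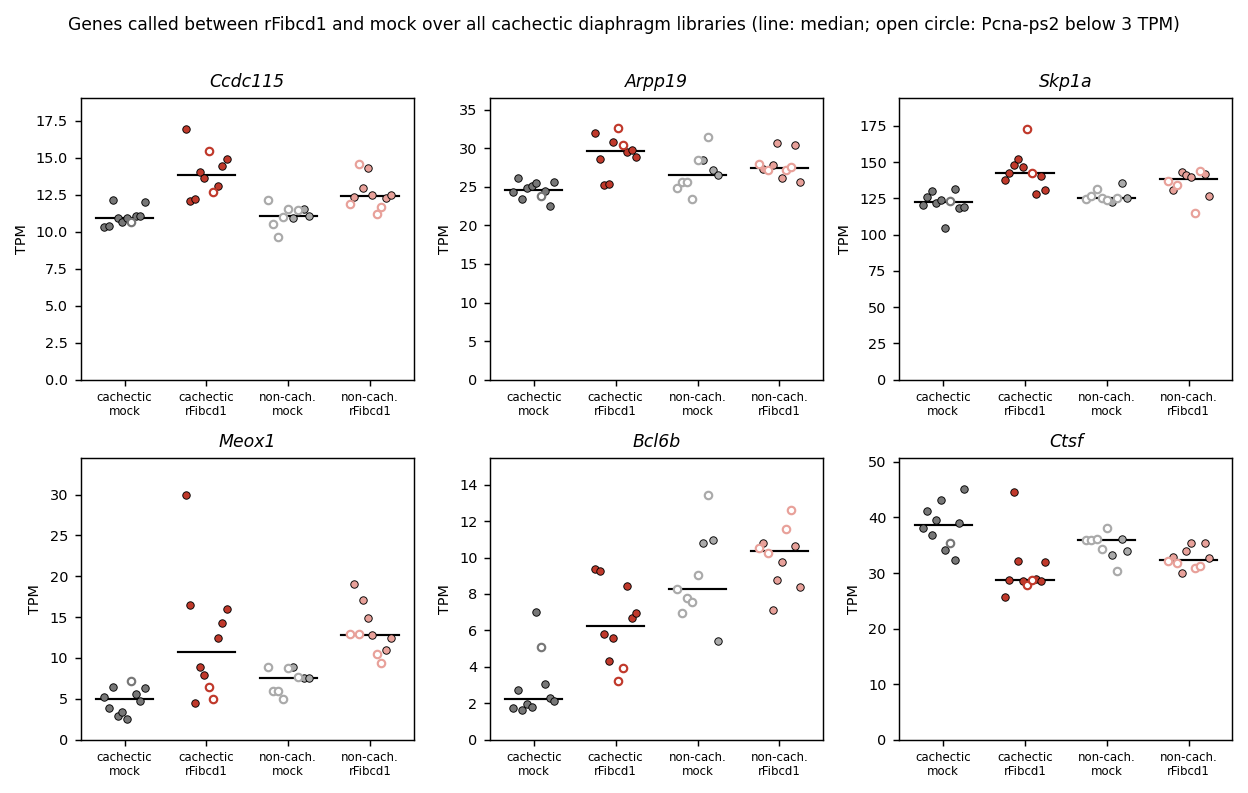
TPM (linear axes from 0) of the 6 genes called between rFibcd1 and mock over all cachectic libraries, in each of 39 diaphragm libraries in 4 groups. Points are libraries, filled where Pcna-ps2 was above 3 TPM and open where it was below, and lines are medians. In Ccdc115 9 of 10 and in Ctsf 9 of 10 cachectic rFibcd1 libraries lie outside the mock range, with Dia3 the exception for Ctsf.

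All values for the non-cachectic diaphragm and for the difference between the melanomas are from the fit over all 39 libraries, in which the high state held 3 of 9 non-cachectic mock and 6 of 10 non-cachectic rFibcd1 libraries. That fit called 56 genes between rFibcd1 and mock in the non-cachectic diaphragm, and within the high state limma called 0 (2039 had an unadjusted p below 0.05). The same injections there gave log2 fold changes of 0.17 for Ccdc115, 0.092 for Skp1a, 0.049 for Arpp19, 0.77 for Meox1, 0.18 for Bcl6b and -0.093 for Ctsf, and none of the 6 was called there. The difference between the 2 melanomas was not called for any of them (limma interaction, adjusted p from 0.792 for Meox1 down to 0.507 for Bcl6b). Under a fit of the 2 cachectic groups alone limma called 0 genes (648 of 12813 tested had an unadjusted p below 0.05), and Dunn tests called 0 (1011 of 13426). The limma count was also 0 without rFibcd1 library Dia1 (946 at an unadjusted p under 0.05) and without mock library Dia6 (1459) or Dia7 (1314), and it was 127 without rFibcd1 library Dia3. With median-ratio scaling Meox1 and Bcl6b remained called, and Ccdc115, Arpp19, Skp1a and Ctsf did not (adjusted p = 0.106, 0.285, 0.300 and 0.0793).

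Among the 9 mock and 8 rFibcd1 libraries of the high state, more genes passed the test. Of 14159 genes 789 were called, or 5.57%, of which 674 (4.76%) were higher and 115 (0.812%) lower with rFibcd1. The 6 genes above were among them. Among called genes averaging at least 5 TPM, those that rose most were interferon-inducible GTPases, guanylate-binding proteins, the chemokine Ccl2 and Cd274. Those that fell most included Scgb3a1, Arrdc2, Ddit4 and Mchr1. The median log2 fold change over all genes tested was 0.0998, and with median-ratio scaling of the libraries it was 0.00098, the count was 369 and 40.1% of the calls were higher in place of 85.4%.

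This count rested on the whole fit and on single libraries. In a fit of the 2 cachectic groups alone limma called 0 genes (2803 of 13016 tested had an unadjusted p below 0.05), and Dunn tests called 0 (2954 of 14159). Left out one at a time, rFibcd1 libraries Dia17, Dia1, Dia2 and Dia4 gave 29, 95, 104 and 341 called genes, Dia18 and Dia3 1405 and 3003, mock libraries Dia34, Dia9, Dia32, Dia20, Dia8 and Dia10 257, 311, 332, 363, 388 and 504, and mock library Dia35 1823. With an index of clock genes as a term 45 genes were called. That index, the mean z-score of Arntl and Npas2 minus that of Dbp, Per2, Per3 and Ciart, ran from -2.10 to 1.45 (median -1.32) in the mock and from -1.01 to 3.42 (median 0.159) in the rFibcd1 libraries of the high state. Its part in the results was not tested beyond that term.

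**Figure D2:**
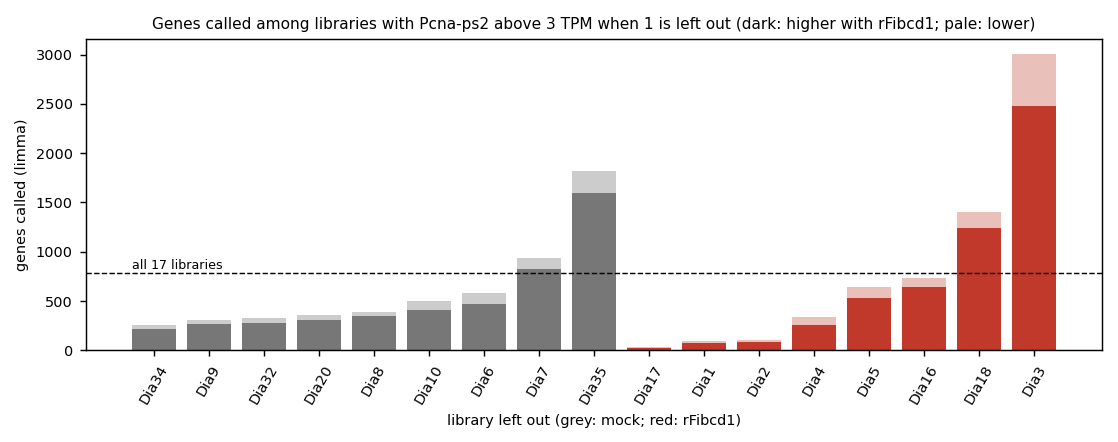
Number of genes called by limma (vertical axis) among libraries with Pcna-ps2 above 3 TPM when 1 cachectic library, named on the horizontal axis, is left out, split into genes higher (dark) and lower (pale) with rFibcd1. The dashed line is the count with all 17 libraries, 789; counts run from 29 without rFibcd1 library Dia17 to 3003 without rFibcd1 library Dia3.

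Called genes averaging at least 5 TPM had their 10 highest fold changes in Iigp1, Tgtp2, Igtp, Tgtp1, Ccl2, Irgm2, Gbp8, Gbp3, Gbp4 and Cd274. Iigp1, Igtp, Irgm2, Tgtp1 and Tgtp2 are immunity-related GTPases that act on vacuoles of intracellular pathogens, the Gbp genes encode guanylate-binding proteins, Cd274 encodes the checkpoint ligand PD-L1, and Ccl2 attracts monocytes. Stretches of 160 bases before the start of 4 interferon-inducible genes are shown because they hold matches to motifs known from interferon responses. They are from RefSeq promoters (GRCm38.p6), 5′ to 3′ on the strand of the gene. Capitals mark letters of the interferon-stimulated response element, searched as TTTC, a gap of 2 bases and TTTC again, and of the gamma-activated site, searched as TTCNNNGAA, on both strands. Igtp lies at chr11:58199396-58199555 (plus strand), Irgm2 at chr11:58214817-58214976 (plus), Isg15 at chr4:156200819-156200978 (minus) and Rsad2 at chr12:26456453-26456612 (minus).
Igtp: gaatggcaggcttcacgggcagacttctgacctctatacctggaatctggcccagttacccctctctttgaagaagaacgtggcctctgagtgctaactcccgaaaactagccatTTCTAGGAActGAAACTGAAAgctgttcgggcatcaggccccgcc
Irgm2: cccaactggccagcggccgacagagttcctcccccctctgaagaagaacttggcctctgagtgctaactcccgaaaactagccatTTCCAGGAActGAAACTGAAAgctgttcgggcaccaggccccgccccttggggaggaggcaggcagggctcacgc
Isg15: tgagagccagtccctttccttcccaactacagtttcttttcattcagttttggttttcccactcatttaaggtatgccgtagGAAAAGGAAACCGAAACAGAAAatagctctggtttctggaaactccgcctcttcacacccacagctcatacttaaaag
Rsad2: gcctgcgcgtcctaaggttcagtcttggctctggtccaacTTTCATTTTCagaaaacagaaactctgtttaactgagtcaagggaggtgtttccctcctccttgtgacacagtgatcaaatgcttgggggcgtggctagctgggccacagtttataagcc

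In Igtp and Irgm2 the gamma-activated site starts 11 bases before the start of the response element, and the 2 promoters, shifted by 30 bases against each other, are identical at 107 of 130 positions. Isg15 holds 3 overlapping response elements and no gamma-activated site in this window, and Rsad2 holds 1 response element. Of the 32851 promoters in the table, 1.72% held the first motif and 4.36% the second in the same 160 bases. These shares are per promoter. In the counts of genes here and below, a gene holds a motif if any of its promoters does, so the units differ. Of the 10 genes with the highest fold changes 6 had a promoter in the table, of which 5 held the first motif (Tgtp2, Igtp, Tgtp1, Irgm2 and Gbp3) and 4 the second (Tgtp2, Igtp, Tgtp1 and Irgm2). Of the 15 called members of the interferon response list, to which Isg15 and Rsad2 belong, 14 had a promoter in the table, of which 6 held the first motif and 0 the second. A match of letters is not a bound site, and these genes were picked for their values.

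Igtp (chromosome 11, 58199556 to 58207591) was at 11.0 to 49.6 TPM (median 15.9) with mock and 17.5 to 795 TPM (median 93.2) with rFibcd1 in the high state (log2 fold change 2.22, SE 0.63, adjusted p = 0.04, 95% interval 0.92 to 3.51). Of 8 rFibcd1 libraries 5 (Dia1, Dia2, Dia16, Dia17 and Dia18) were above the highest mock library, while Dia3 and Dia5, at 17.5 and 19.5 TPM, were close to the mock median. Iigp1 was at 8.39 to 56.5 TPM (median 12.2) with mock and 16.0 to 529.8 TPM (median 91.1) with rFibcd1 (log2 fold change 2.24, adjusted p = 0.0325), and Irgm2 at 8.01 to 34.5 TPM (median 11.9) and 13.7 to 252 TPM (median 57.4) (1.88, adjusted p = 0.0362). Tgtp1 and Tgtp2 rose by 2.06 and 2.22; they are near-identical copies, and Igtp and Irgm2 overlap in the annotation on one strand, so that reads could have been shared between the members of each pair. Among the mock libraries Dia10 was the highest for Igtp, Iigp1, Irgm2, Tgtp1, Tgtp2 and Gbp3.

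Gbp3 rose from a median of 8.55 TPM with mock to 37.6 TPM with rFibcd1 (log2 fold change 1.83, SE 0.44, adjusted p = 0.0262), and its range with rFibcd1 was 11.4 to 230.2 TPM against 5.70 to 26.2 TPM. Gbp4 and Gbp8 rose by 1.83 and 1.85. Cd274 rose by 1.77 (adjusted p = 0.0392), at 2.95 to 19.8 TPM (median 5.39) with mock and 6.22 to 198 TPM (median 24.0) with rFibcd1. Each of these genes had its highest value in rFibcd1 library Dia1.

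The interferon response list holds Gbp3 of the genes above and otherwise interferon-induced genes and their regulators. Of its 22 members 15 rose and 0 fell, with 21 higher at an unadjusted p under 0.05 and a median of 1.05. Of all genes 4.76% were called higher and 22.4% were higher at an unadjusted p under 0.05, and their median was 0.0998. Isg15, a ubiquitin-like modifier, was at 4.40 to 15.4 TPM (median 9.57) with mock and 9.40 to 148 TPM (median 27.7) with rFibcd1 (log2 fold change 1.51, SE 0.36, adjusted p = 0.0249), and 6 of 8 libraries were above the highest mock library. Rsad2, the antiviral enzyme viperin, was at 0.898 to 2.39 TPM (median 1.89) and 2.39 to 43.2 TPM (median 5.13) (log2 fold change 1.47, SE 0.35, adjusted p = 0.0255), and there the groups did not overlap, though the nearest libraries of the 2 groups both lay at about 2.39 TPM. Irf9, the DNA-binding part of the interferon-activated complex, rose by 0.63 and Xaf1, an inducible pro-apoptotic factor, by 0.99 (adjusted p = 0.0243 and 0.0196).

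The count of interferon response members called moved with the libraries kept. It was 0 without rFibcd1 library Dia17, 1 without Dia2, 3 without Dia1, 7 without Dia4, 6 without mock library Dia20 or Dia34, 7 without mock library Dia9, 8 without mock library Dia8, 9 without mock library Dia32 and 21 without rFibcd1 library Dia3 or mock library Dia35, while the median of the list stayed between 0.812 and 1.19. With median-ratio scaling 11 members rose, and with the clock index as a term 0 were called. Over all 20 libraries 0 of 22 were called and 15 were higher at an unadjusted p under 0.05, with a median of 0.75. With the libraries Dia11 and Dia14 included, the range with rFibcd1 reached down to 4.95 TPM for Igtp and 2.87 TPM for Isg15.

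Markers of T and NK cells were highest in some of the same rFibcd1 libraries. The summed level of the 11 markers was 2.56 to 19.4 TPM with mock and 6.05 to 183 TPM with rFibcd1, highest in Dia1, and all 11 were above 0 in at least 1 cachectic library. Of the 11, 10 passed the filter of 1 TPM in 3 libraries, which a marker can pass through the libraries where it is high, so that counts over them are no measure of the whole list. Of these 10 limma called 0 (10 had an unadjusted p under 0.05), but 6 without rFibcd1 library Dia3 and 1 without mock library Dia35. Of all genes 22.4% were higher at that p. Without Dia3, 2474 of 14123 genes tested were called higher, and without Dia35 1595 of 14127 were. Over all 20 libraries 8 passed the filter there, 0 were called and 1 was higher at an unadjusted p under 0.05, where 6.01% of all genes were. Cd3e, a chain of the T cell receptor complex, was at 0.0381 to 1.28 TPM (median 0.359) with mock and 0.158 to 7.85 TPM (median 1.21) with rFibcd1 (adjusted p = 0.149). Libraries Dia1, Dia16, Dia17 and Dia2, at 7.85, 4.84, 4.13 and 1.86 TPM, were above the highest mock library.

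Gzmb, a granzyme of cytotoxic cells, was at 0 to 1.26 TPM (median 0.274) and 0.161 to 34.2 TPM (median 1.46) (adjusted p = 0.166). Ifng, the interferon made by such cells, was below the filter for testing and is named after its values were seen. It was at most 0.0890 TPM with mock, and at 9.39, 0.967, 0.649, 0.444 and 0.129 TPM in rFibcd1 libraries Dia1, Dia16, Dia17, Dia2 and Dia18. These 5 are also the libraries above every mock library for Igtp. The part of these cells in the interferon-inducible genes was not tested.

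**Figure D3:**
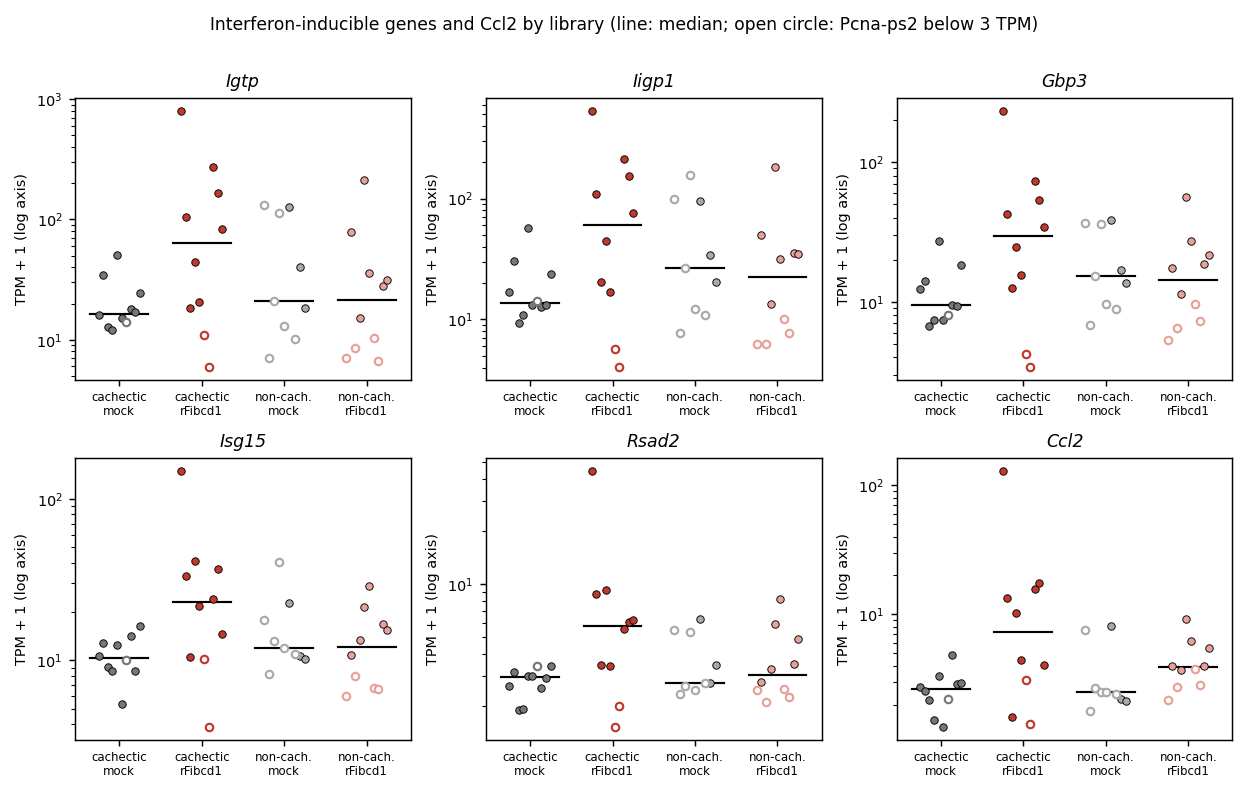
TPM + 1 on a log axis of Igtp, Iigp1, Gbp3, Isg15, Rsad2 and Ccl2 in 39 diaphragm libraries of 4 groups. Points are libraries, open where Pcna-ps2 was below 3 TPM, and lines are medians; 5 of 10 cachectic rFibcd1 libraries lie above the mock range for Igtp, and the non-cachectic groups overlap each other.

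Over all libraries, high and low in state, none of Igtp, Iigp1, Gbp3 and Isg15 was called in the non-cachectic diaphragm. The log2 fold changes there were -0.47 for Igtp, -0.60 for Iigp1, -0.26 for Gbp3 and -0.29 for Isg15 (adjusted p = 0.661, 0.582, 0.751 and 0.637), and Igtp was at 6.10 to 132 TPM (median 20.1) with mock and 5.60 to 211 TPM (median 20.6) with rFibcd1. The cachectic fold change of Igtp over all libraries was 1.56 (adjusted p = 0.445), and its difference between the melanomas was not called, at 2.04 with SE 1.01 (adjusted p = 0.57).

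Of 20 chemokines tested 2 rose in the high state and 0 fell, with 9 higher at an unadjusted p under 0.05, where 4.76% of all genes rose and 22.4% were higher at that p, while with median-ratio scaling 0 rose and 1 fell. The number that rose was 0 without rFibcd1 library Dia1, Dia2, Dia4 or Dia17 or mock library Dia8, Dia9, Dia20 or Dia34, 1 without mock library Dia10 or Dia32, 3 without mock library Dia6, 6 without mock library Dia35 and 7 without rFibcd1 library Dia3 or Dia18. Ccl2 was at 0.352 to 3.86 TPM (median 1.76) with mock and 0.600 to 128 TPM (median 10.9) with rFibcd1 (log2 fold change 2.04, SE 0.55, adjusted p = 0.0354), with 5 of 8 libraries above the highest mock library. Ccl11, the eosinophil attractant eotaxin, was at 14.6 to 32.3 TPM (median 25.4) and 23.6 to 45.2 TPM (median 34.7) (0.53, adjusted p = 0.0439). Cxcl9, which interferon gamma induces, was at 0.0184 to 8.28 TPM (median 1.71) and 0.905 to 229.8 TPM (median 15.4) and was not called (adjusted p = 0.0663). Macrophage markers summed to 422 to 809 TPM with mock and 283 to 1638 TPM with rFibcd1, and 0 of 11 were called by limma, with 1 higher at an unadjusted p under 0.05.

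Over all 20 libraries none of the 10 genes with the highest fold changes at an unadjusted p under 0.05 was called. F830016B08Rik, Gm4841, BC023105 and Gm12185 had log2 fold changes of 2.67, 2.53, 2.19 and 1.87, and with rFibcd1 their medians were 26.8, 8.36, 4.24 and 4.86 TPM against 1.38, 0.843, 0.259 and 0.603 TPM with mock. The immunoglobulin genes Igha and Igkv8-16 had fold changes of 1.69 and 1.80. The light chain constant gene Igkc ran from 13.6 to 2147 TPM with mock and from 17.1 to 1969.6 TPM with rFibcd1, and 0 of 9 B and plasma cell markers were called by limma or were past an unadjusted p of 0.05. Gm7334, Gm4737 and Gm8730 were near 0 in some libraries and well above it in others of the same group, as Gm8730 at 0.156 to 133 TPM with rFibcd1 against 46.6 to 157 TPM with mock (-1.97, adjusted p = 0.419).

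Several glucocorticoid targets fell. Of the 25 members of the list of the receptor and its targets, 6 fell in the high state (Tsc22d3, Ddit4, Cebpd, Fkbp5, Arrdc2 and Glul) and 1, the receptor Nr3c1, rose, where 0.812% of all genes were called lower. At an unadjusted p under 0.05, 12 were lower and 1 higher, where 4.46% of all genes were lower, and the list median was -0.35. Members called lower numbered 0 without rFibcd1 library Dia17, 2 without Dia1 or Dia2, 3 without mock library Dia8, Dia9, Dia20 or Dia34, 4 without rFibcd1 library Dia16 or mock library Dia7 or Dia32, and 13 without rFibcd1 library Dia3. With median-ratio scaling 6 fell and 0 rose, and with the clock index as a term 0 were called.

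Tsc22d3 (chromosome X, 140539528 to 140600659), which encodes the glucocorticoid-induced leucine zipper, was at 71.7 to 126 TPM (median 112) with mock and 33.2 to 108 TPM (median 47.1) with rFibcd1 (log2 fold change -0.99, SE 0.20, adjusted p = 0.0189). In 6 of 8 rFibcd1 libraries it was below the lowest mock library. Fkbp5 (chromosome 17, 28399094 to 28517527), a chaperone that the receptor induces and that dampens it, was at 28.8 to 195 TPM (median 53.4) and 7.44 to 90.5 TPM (median 13.3) (log2 fold change -1.53, SE 0.42, adjusted p = 0.0366). Its values fell into 2 sets among the rFibcd1 libraries, with Dia1, Dia2, Dia16, Dia17 and Dia18 between 7.44 and 14.4 TPM, all below every mock library, and Dia3, Dia4 and Dia5 at 90.5, 45.9 and 44.1 TPM within the mock range. The former are the 5 libraries above every mock library for Igtp.

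Cebpd, a transcription factor of the acute phase, was at 26.8 to 96.9 TPM (median 44.1) with mock and 9.26 to 78.4 TPM (median 14.3) with rFibcd1 (log2 fold change -1.31, SE 0.30, adjusted p = 0.0243), with 6 of 8 libraries below the lowest mock library and Dia3 above the mock median. Glul, glutamine synthetase, fell by 0.86 (adjusted p = 0.044). Nr3c1 was at 19.1 to 36.7 TPM (median 23.9) and 26.5 to 42.0 TPM (median 39.1) (0.49, adjusted p = 0.0283). A motif of the receptor, searched as ACANNNTGT on both strands, was in the 160 bases before the start in 3.42% of promoters, and in 1 of the 5 called-lower members with a promoter in the table (Glul). Over all libraries the cachectic log2 fold changes were -0.79 for Tsc22d3, -1.06 for Fkbp5, -0.99 for Cebpd and -1.36 for Ddit4, none of them called, and those in the non-cachectic diaphragm were -0.31 for Tsc22d3, 0.22 for Fkbp5, -0.014 for Cebpd and -0.028 for Ddit4 (adjusted p = 0.347, 0.704, 0.976 and 0.958), and the difference between the melanomas was not called for these 4 genes (adjusted p from 0.507 for Ddit4 to 0.622 for Tsc22d3).

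Ddit4 and Arrdc2 are also among 8 genes singled out by the study in its melanoma experiments. Those 8 were chosen on these samples, so their direction is not independent evidence. In the high state Ddit4, Arrdc2 and Scgb3a1 fell and the other 5 were not called, while at an unadjusted p under 0.05 6 were lower and 2 higher. The number called lower was 2 with median-ratio scaling, 0 with the clock index as a term, 0 without rFibcd1 library Dia17 and 1 without Dia1 or Dia2. Without rFibcd1 library Dia3 all 8 were called, 6 lower and 2 higher, and without mock library Dia35 4 were lower and 1 higher. Without rFibcd1 library Dia18 3 were lower and 1 higher, and 2 were lower without rFibcd1 library Dia4 or any mock library other than Dia32 and Dia35. Ddit4, a repressor of mTOR signalling, was at 56.6 to 303 TPM (median 66.4) with mock and 15.4 to 96.8 TPM (median 19.1) with rFibcd1 (log2 fold change -1.64, SE 0.35, adjusted p = 0.0196); mock library Dia20 held the highest value, and rFibcd1 libraries Dia3 and Dia4 (96.8 and 61.0 TPM) lay within the mock range. Scgb3a1, a secretoglobin, was at 11.2 to 56.7 TPM (median 26.2) and 1.56 to 26.6 TPM (median 2.94) (log2 fold change -1.92, SE 0.44, adjusted p = 0.0243), and Arrdc2, an arrestin-like gene of atrophying muscle, at 21.2 to 215 TPM (median 65.1) and 4.44 to 123 TPM (median 15.8) (log2 fold change -1.89, SE 0.54, adjusted p = 0.0422).

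The other 5 had log2 fold changes of -0.76 for the glucocorticoid-induced factor Klf15, -0.87 for the ubiquitin ligase adaptor Klhl38, -0.84 for the transcription factor Zbtb16, 0.39 for slow troponin I (Tnni1) and 0.53 for the actin capping protein Capza1 in the high state (adjusted p = 0.0998, 0.0914, 0.0725, 0.0861 and 0.0504). For Capza1 the low-state mock library Dia22, at 18.0 TPM, was the highest mock library and the other 9 were between 6.47 and 13.1 TPM. Of 15 genes of actin capping and thin filament ends 1 rose in the high state, where 4.76% of all genes were called higher, and 0 were called with median-ratio scaling. At an unadjusted p under 0.05, 5 of the 15 were higher and 1 lower, where 22.4% and 4.46% of all genes were. Without rFibcd1 library Dia3 5 rose and 1 fell, 2 rose without rFibcd1 library Dia18 or mock library Dia35, 1 rose without rFibcd1 library Dia16 or mock library Dia7, and 0 were called without any other. The gene called was Capza2, the partner of Capza1 (0.23, adjusted p = 0.0392), at 49.7 to 58.8 TPM (median 53.8) with mock and 54.2 to 81.0 TPM (median 63.2) with rFibcd1.

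**Figure D4:**
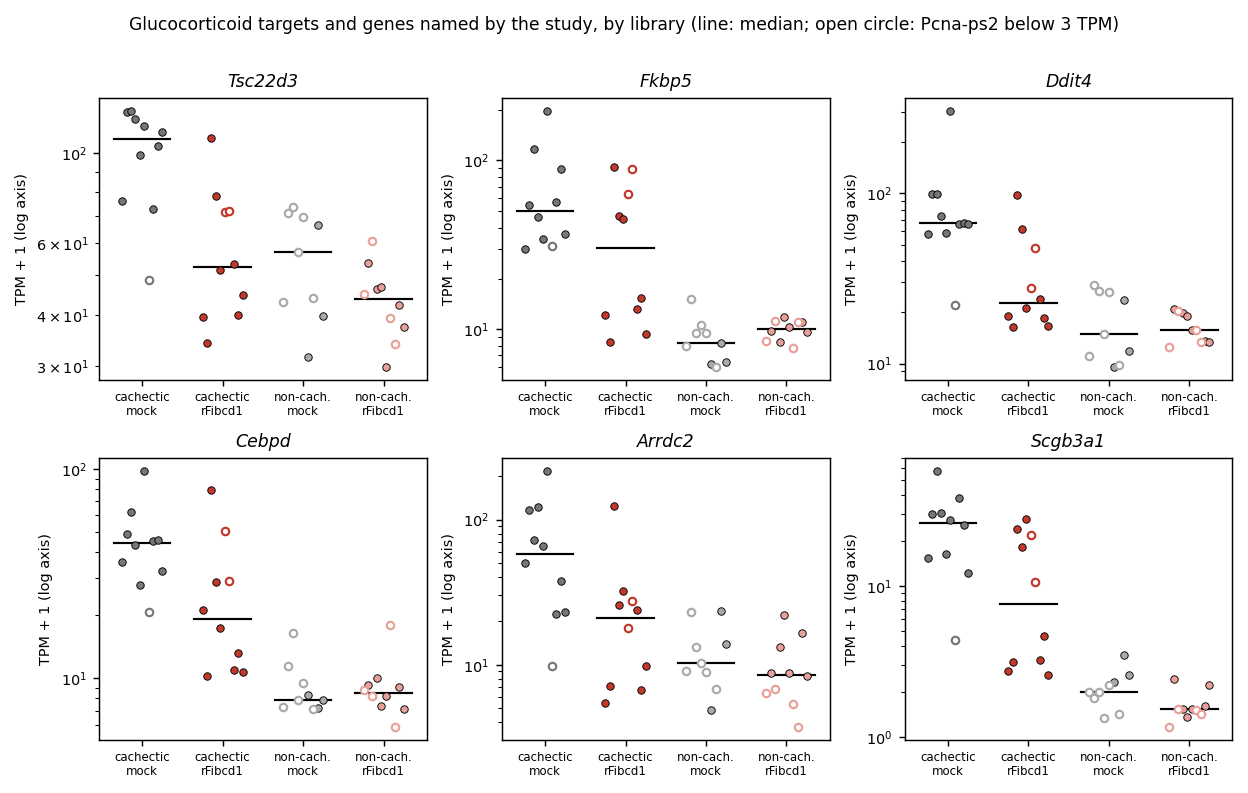
TPM + 1 on a log axis of Tsc22d3, Fkbp5, Ddit4, Cebpd, Arrdc2 and Scgb3a1 in 39 diaphragm libraries of 4 groups. Points are libraries, open where Pcna-ps2 was below 3 TPM, and lines are medians; most cachectic rFibcd1 libraries lie below the mock median, and for Fkbp5 5 of 10 lie below the lowest mock library.

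The other genes among the 10 lowest fold changes in the high state were Mchr1, Syt12, Tmem252, Apod and Map3k6. Mchr1, a receptor for melanin-concentrating hormone, was at 4.73 to 45.2 TPM (median 12.8) with mock and 1.27 to 9.54 TPM (median 3.29) with rFibcd1 (log2 fold change -1.60, SE 0.31, adjusted p = 0.0189). Syt12, a synaptotagmin, was at 3.56 to 18.0 TPM (median 6.36) and 0.541 to 5.30 TPM (median 2.09) (log2 fold change -1.53, SE 0.29, adjusted p = 0.0139). No rFibcd1 library was above the mock median in either. Apod, a lipid carrier, fell by 1.44, Tmem252 by 1.45 and the stress kinase Map3k6 by 1.43, with 5 of 8 libraries below the lowest mock library in each.

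Acute phase and metallothionein genes had lower medians and few calls. Of 21 acute phase and interleukin-6 response genes 1 fell in the high state (Cebpd), and 7 were lower at an unadjusted p under 0.05, where 0.812% and 4.46% of all genes were, with a list median of -0.38. That median was -0.19 without mock library Dia20, -0.23 without rFibcd1 library Dia18 and -0.53 without rFibcd1 library Dia3. The number called lower was 0 without rFibcd1 library Dia1, Dia2 or Dia17, 2 without rFibcd1 library Dia18 or mock library Dia10, 3 without mock library Dia35 and 5 without rFibcd1 library Dia3. Serpina3n, a protease inhibitor of the acute phase, was at 106 to 2184 TPM (median 258) with mock and 8.13 to 873 TPM (median 68.9) with rFibcd1 (-1.99, adjusted p = 0.0886), and Socs3, which limits cytokine signalling, at 27.6 to 106 TPM (median 45.4) and 7.77 to 72.0 TPM (median 28.8) (-0.84, adjusted p = 0.127). Of 7 metallothionein and zinc genes 1 fell, the zinc exporter Slc30a2, at 4.13 to 9.82 TPM (median 6.39) with mock and 1.66 to 4.98 TPM (median 3.34) with rFibcd1 (log2 fold change -0.82, SE 0.14, adjusted p = 0.00836), with 7 of 8 rFibcd1 libraries below the lowest mock library. It was the one member of these lists that was also called with the clock index as a term. Of the metallothionein and zinc genes 3 fell without rFibcd1 library Dia3 and 2 without mock library Dia35. The metal-binding Mt1 was at 264 to 2851 TPM (median 751) and 100.1 to 1769 TPM (median 213) (-1.55, adjusted p = 0.0624). Liver markers summed to 58.3 to 3455 TPM with mock and 92.4 to 2150.4 TPM with rFibcd1, with 0 of 11 called by limma and 0 past an unadjusted p of 0.05.

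Fmo2, an enzyme of drug oxidation, and Chac1, a stress-induced enzyme of glutathione breakdown, had lower values over all libraries, and neither was called there. Fmo2 was at 63.0 to 185 TPM (median 92.2) with mock and 20.2 to 115 TPM (median 40.5) with rFibcd1 (-1.08, adjusted p = 0.115) and fell in the high state by 1.15 (adjusted p = 0.0316). Chac1 was at 16.5 to 98.0 TPM (median 32.3) and 2.77 to 63.1 TPM (median 11.7) (-1.52, adjusted p = 0.253). Of 17 genes of the integrated stress and unfolded protein response 1 fell in the high state, the endoplasmic reticulum protein Herpud1 (-0.39, adjusted p = 0.0476). Of all genes 4.76% were called higher and 0.812% lower. At an unadjusted p under 0.05, 3 of the 17 were higher and 2 lower, where 22.4% and 4.46% of all genes were. The list median was 0.036, against 0.0998 over all genes tested. Of that list 2 rose and 2 fell without rFibcd1 library Dia3, 1 fell without rFibcd1 library Dia4 or Dia18 or mock library Dia35, and 0 were called without any other.

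Matrix genes had higher medians. Of 16 collagens 2 rose in the high state and 13 were higher at an unadjusted p under 0.05, where 4.76% and 22.4% of all genes were, with a list median of 0.74. Col5a3, a minor fibrillar collagen chain, was at 3.84 to 7.15 TPM (median 5.49) with mock and 6.00 to 28.2 TPM (median 11.0) with rFibcd1 (log2 fold change 1.02, SE 0.23, adjusted p = 0.0231), with 7 of 8 libraries above the highest mock library. Over all libraries its log2 fold change was 0.79 in the cachectic (adjusted p = 0.202) and 1.34 in the non-cachectic diaphragm (adjusted p = 0.00158), where no gene was called within the high state. Col6a1, a chain of the microfibrils around fibres, was at 18.2 to 63.8 TPM (median 41.7) and 26.5 to 109 TPM (median 71.9) (0.78, adjusted p = 0.0428). With median-ratio scaling 1 of the 16 rose and with the clock index 0. The number of collagens called was 0 without rFibcd1 library Dia1 or Dia17, 13 without Dia3 and 9 without mock library Dia35. It was 2 without rFibcd1 library Dia18 or mock library Dia7 or Dia10, and 1 without any other, while the list median ran from 0.562 to 0.965.

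Of 22 other matrix genes 7 were higher in the high state at an unadjusted p under 0.05, where 22.4% of all genes were. The microfibril protein Fbn1 (0.99, adjusted p = 0.0316) and the crosslinking enzyme Loxl2 (0.95, adjusted p = 0.0305) rose, where 4.76% of all genes were called higher, and 0 did with median-ratio scaling. Of the 22 the number called was 0 without rFibcd1 library Dia1, Dia2 or Dia17 or mock library Dia9 or Dia20, 1 without mock library Dia8 or Dia34, 8 without rFibcd1 library Dia3 and 4 without mock library Dia35. Fibroblast markers summed to 1622 to 2603 TPM with mock and 1837 to 3124 TPM with rFibcd1, with 0 of 11 called by limma (4 without rFibcd1 library Dia3) and 3 higher at an unadjusted p under 0.05. Mesothelium markers, of the covering of the diaphragm, summed to 73.7 to 299 TPM with mock and 130.3 to 340.2 TPM with rFibcd1, with a list median of 0.49, against 0.31 for fibroblast markers, and with 0 of 9 called by limma (1 without rFibcd1 library Dia3) and 2 higher at an unadjusted p under 0.05. The part of either cell type in the matrix genes was not tested.

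Integrins and ERK pathway genes were examined because the study reported that rFibcd1 raises ERK activity in myotubes. It also proposed that rFibcd1 may act through integrins, with Itga2b as a possible receptor. Of 21 integrin genes 2 rose in the high state and 7 were higher at an unadjusted p under 0.05, where 4.76% and 22.4% of all genes were, while with median-ratio scaling 1 rose. The count was 6 without rFibcd1 library Dia3, 3 without mock library Dia35, 2 without rFibcd1 library Dia16 or Dia18 or mock library Dia7, and 1 without any other. Itga6, a laminin receptor chain, was at 9.03 to 12.9 TPM (median 11.0) with mock and 12.4 to 20.2 TPM (median 14.6) with rFibcd1 (log2 fold change 0.51, SE 0.10, adjusted p = 0.0192), with 6 of 8 libraries above the highest mock library, and Itgav, a vitronectin receptor chain, rose by 0.41 (adjusted p = 0.0454). Itga2b, the platelet integrin chain, was at 0.754 to 5.45 TPM (median 2.18) with mock and 0.609 to 4.29 TPM (median 1.53) with rFibcd1 over all libraries (-0.13, adjusted p = 0.857, 95% interval -0.57 to 0.30).

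Of 28 ERK feedback and immediate early genes tested in the high state 1 rose and 1 fell, where 4.76% of all genes rose and 0.812% fell, and at an unadjusted p under 0.05 6 were higher and 2 lower, where 22.4% and 4.46% of all genes were. Dusp7, a phosphatase that inactivates ERK, was at 15.8 to 29.1 TPM (median 22.8) with mock and 10.5 to 20.1 TPM (median 13.9) with rFibcd1 (log2 fold change -0.57, SE 0.14, adjusted p = 0.0258), and no rFibcd1 library was above the mock median. Ccnd1, cyclin D1, was at 1.61 to 12.1 TPM (median 4.41) and 3.19 to 27.9 TPM (median 12.3) (log2 fold change 1.15, SE 0.30, adjusted p = 0.0316). No ERK gene was called without rFibcd1 library Dia1, Dia2 or Dia17 or mock library Dia34, and 0 rose without mock library Dia8, Dia9 or Dia20. Without rFibcd1 library Dia3 4 rose and 2 fell, and without rFibcd1 library Dia18 or mock library Dia35 2 rose and 1 fell. These are RNA levels, and phosphorylation of ERK was not measured here.

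Few genes of protein breakdown were called. For comparison, the high state had 4.76% of all genes called higher and 0.812% called lower, and 22.4% higher and 4.46% lower at an unadjusted p under 0.05. Of 28 atrophy ubiquitin ligases and SCF core genes 1 rose in the high state (Skp1a, 0.21), with 3 higher and 4 lower at an unadjusted p under 0.05, and of 31 proteasome subunits 1 rose, Psma1, a subunit of the core ring (0.22, adjusted p = 0.0369). Of 21 autophagy genes 0 were called by limma and 3 were higher at an unadjusted p under 0.05. Smad2, which carries myostatin and activin signals, was the single called gene of 21 in that pathway (0.29, adjusted p = 0.0476), with 7 higher at an unadjusted p under 0.05, and Colq, the collagen tail of synaptic acetylcholinesterase, was the single one of 17 denervation and neuromuscular junction genes (0.58, adjusted p = 0.0434). With median-ratio scaling Psma1, Skp1a, Smad2 and Colq were not called. Ddit4 was the single called gene of 28 in the insulin, IGF1, FoxO and mTOR list, and Meox1 of 14 myogenic and regeneration genes. Of 18 heat shock genes 6 were higher and 1 lower at an unadjusted p under 0.05 and limma called 0, as it did for 18 antioxidant genes (2 higher), 14 p53 targets (3 higher) and 24 fatty acid genes (1 higher and 1 lower). With single libraries left out these counts often fell to 0. No ubiquitin ligase gene was called without rFibcd1 library Dia2 or Dia17, and no proteasome gene rose without rFibcd1 library Dia1, Dia2 or Dia17 or mock library Dia6, Dia8, Dia10, Dia20, Dia32 or Dia34. No neuromuscular junction gene was called without rFibcd1 library Dia1, Dia2, Dia5, Dia16 or Dia17 or mock library Dia8, Dia9, Dia10, Dia20, Dia32 or Dia34. For the myostatin pathway a call was left only without rFibcd1 library Dia3 or Dia18 or mock library Dia7 or Dia35. The insulin list had 2 lower with median-ratio scaling, 0 called without rFibcd1 library Dia17, 3 higher and 5 lower without Dia3, 1 higher and 1 lower without Dia18, and 1 higher and 2 lower without mock library Dia35. Without rFibcd1 library Dia3 2 ubiquitin ligase genes rose and 4 fell, 7 myostatin pathway genes rose, 2 autophagy genes rose and 2 fell, 3 heat shock genes rose and 1 fell, 3 p53 targets rose and 4 fatty acid genes fell. An antioxidant gene rose without rFibcd1 library Dia3, Dia4 or Dia5.

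Of 20 genes of glucose and glycogen use 3 fell in the high state and 5 were lower at an unadjusted p under 0.05, where 0.812% and 4.46% of all genes were, and the 3 were Slc2a4, the insulin-responsive glucose transporter, at 335 to 437 TPM (median 389) with mock and 232 to 395 TPM (median 274) with rFibcd1 (log2 fold change -0.40, SE 0.084, adjusted p = 0.0196), Gys1, glycogen synthase, at 335 to 440.4 TPM (median 386) with mock and 208 to 437 TPM (median 269.8) with rFibcd1 (log2 fold change -0.49, SE 0.11, adjusted p = 0.0238), and Phka1, a phosphorylase kinase subunit, which fell by 0.47. In Gys1 7 of 8 rFibcd1 libraries were below the lowest mock library. The same 3 fell with median-ratio scaling, and 0 of the 20 were called with the clock index as a term. The count was 0 without rFibcd1 library Dia17, 1 without Dia1 or Dia2 and 4 without Dia3.

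Of 36 nuclear genes of oxidative phosphorylation 1 rose in the high state (Tfam, which maintains mitochondrial DNA, 0.25) and 1 fell (Cox6a2, a muscle subunit of cytochrome oxidase, -0.39). Of all genes 4.76% were called higher and 0.812% lower. At an unadjusted p under 0.05, 1 of the 36 was higher and 9 were lower, where 22.4% of all genes were higher and 4.46% lower. With median-ratio scaling, or without rFibcd1 library Dia1, Dia2 or Dia17 or mock library Dia32 or Dia34, none was called. The number that fell was 0 without rFibcd1 library Dia4 or mock library Dia6, Dia8, Dia9 or Dia10, 3 without rFibcd1 library Dia16 or mock library Dia35, 4 without Dia18 and 6 without Dia3. Slow fibre genes (14), fast fibre genes (15) and troponins (8) had 0 called by limma, with 1, 1 and 1 higher and 1, 1 and 0 lower at an unadjusted p under 0.05, where 22.4% of all genes were higher and 4.46% lower. Without rFibcd1 library Dia3 2 slow fibre genes, 2 fast fibre genes and 1 troponin rose and 1 fast fibre gene fell. The 13 mitochondrially encoded genes took 37.6% ± 5.62 of TPM with rFibcd1 and 38.1% ± 3.18 with mock (SD, n = 10 each), a difference of -0.477 percentage points (two-sided permutation test, p = 0.816). Within the high state the difference was 0.0204 points (exact permutation test, p = 0.992). Of 19 core clock and clock output genes 1 fell in the high state, where 0.812% of all genes were called lower. It was Per2, at 14.8 to 26.4 TPM (median 21.2) with mock and 3.42 to 20.2 TPM (median 9.18) with rFibcd1 (log2 fold change -1.12, SE 0.31, adjusted p = 0.0366). At an unadjusted p under 0.05, 5 of the 19 were lower and 2 higher, where 4.46% of all genes were lower and 22.4% higher. No clock gene fell without rFibcd1 library Dia1, Dia2 or Dia17 or mock library Dia8, Dia9, Dia20, Dia32 or Dia34, and without rFibcd1 library Dia3 4 fell and 1 rose. Without mock library Dia7 or Dia35 1 fell and 1 rose. Over all libraries the log2 fold change of Per2 was -0.97 in the cachectic (adjusted p = 0.278) and -1.82 in the non-cachectic diaphragm (adjusted p = 0.00251), where no gene was called within the high state. The clock index, of which Per2 is part, ran from -2.55 to 0.587 (median -1.66) in the non-cachectic mock and from 0.399 to 3.92 (median 1.68) in the non-cachectic rFibcd1 libraries.

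**Figure D5:**
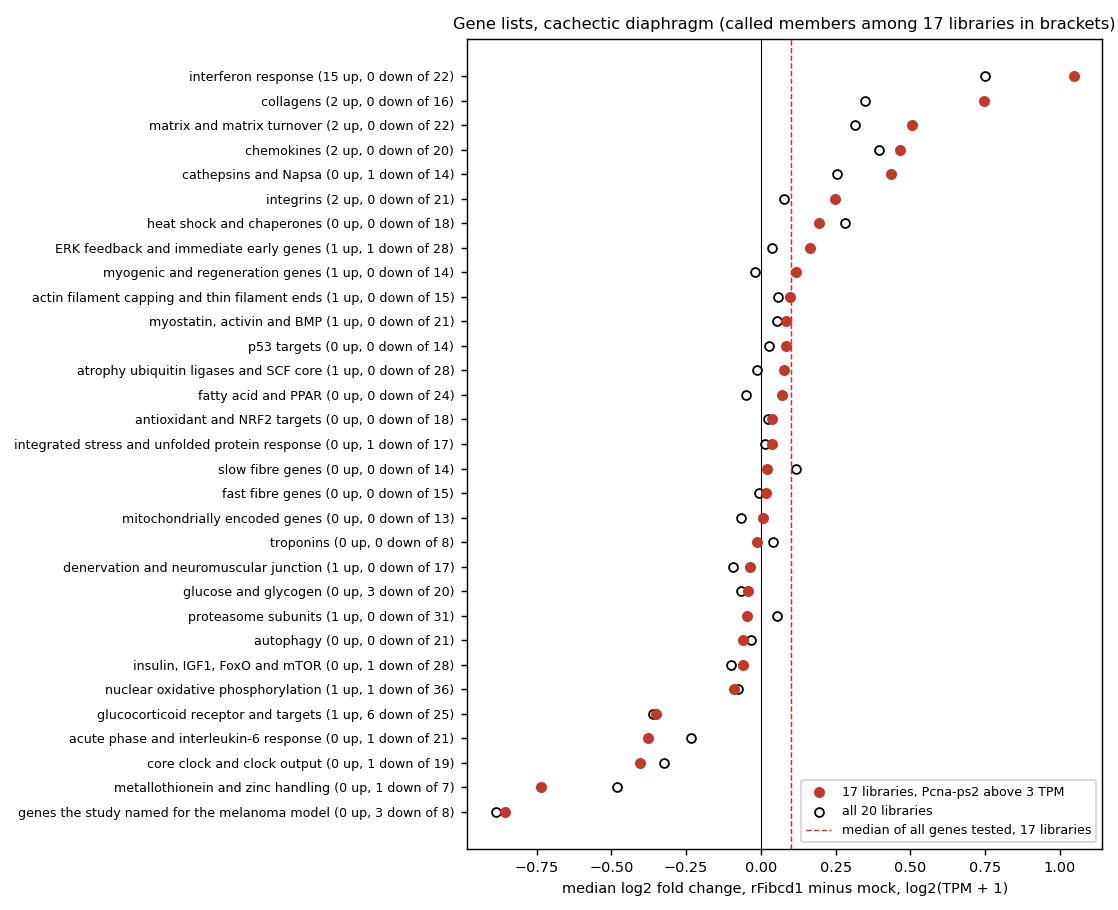
Median log2 fold change, rFibcd1 minus mock on log2(TPM + 1), of 31 gene lists in the cachectic diaphragm, in the 17 libraries with Pcna-ps2 above 3 TPM (red) and in all 20 (open). Brackets give the members called higher and lower of those tested in the 17 libraries, and the dashed line is the median of all genes tested there, 0.0998; interferon response genes lie highest and the genes named by the study lowest.

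Among 18 endothelial markers tested 1 rose (Bcl6b, 1.18) and 2 fell in the high state, where 4.76% of all genes rose and 0.812% fell. Flt1, a VEGF receptor, was at 29.6 to 50.8 TPM (median 38.1) with mock and 19.5 to 36.9 TPM (median 27.9) with rFibcd1 (log2 fold change -0.45, SE 0.12, adjusted p = 0.0328), and Vwf, von Willebrand factor, at 9.71 to 23.8 TPM (median 15.5) and 8.33 to 13.9 TPM (median 11.0) (log2 fold change -0.51, SE 0.13, adjusted p = 0.0316). In both, no rFibcd1 library was above the mock median, and Bcl6b was above the mock median in 8 of 8. With median-ratio scaling 1 endothelial marker rose and 2 fell. None fell without rFibcd1 library Dia1, Dia2 or Dia17 or mock library Dia8, Dia20, Dia32 or Dia34, 1 fell without mock library Dia9, and 2 rose without rFibcd1 library Dia3.

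In the high state 13 genes were higher in every rFibcd1 library than in any mock library, or 0.0918% of those tested, and 1 (0.00706%) was lower. Besides Rsad2 they include Wnt4, a secreted signal of development, at 2.72 to 7.74 TPM (median 4.71) with mock and 7.97 to 14.6 TPM (median 9.85) with rFibcd1 (0.89, adjusted p = 0.00516), and the zinc finger gene Zkscan1 (0.38) and the receptor-sorting gene Gprasp1 (0.48). Over all libraries the log2 fold change of Wnt4 was 0.66 in the cachectic (adjusted p = 0.182) and 0.76 in the non-cachectic diaphragm (adjusted p = 0.0314). The gene that was lower was Ccbl1, a kynurenine aminotransferase, at 15.2 to 18.8 TPM (median 16.7) and 11.8 to 15.0 TPM (median 14.3) (-0.28, adjusted p = 0.0196). These were named after their values were seen, Rsad2 excepted.

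The rFibcd1 effect differed between the cachectic and the non-cachectic diaphragm in 3 of 13426 genes (0.0223%), with 1 higher (0.00745%) and 2 lower (0.0149%) in the cachectic one. Irf2bp2, a transcriptional corepressor, was at 13.7 to 24.0 TPM (median 21.1) with mock and 13.2 to 23.8 TPM (median 18.4) with rFibcd1 in cachectic mice, against 9.40 to 14.5 TPM (median 11.4) and 16.5 to 28.3 TPM (median 19.2) in non-cachectic mice (interaction -0.86, SE 0.15, adjusted p = 0.0272). Ypel2 gave an interaction of -0.93 (SE 0.18, adjusted p = 0.0321), from log2 fold changes of -0.11 in cachectic and 0.83 in non-cachectic mice. Over all libraries, of unequal state between the 2 non-cachectic groups, both rose with rFibcd1 in the non-cachectic diaphragm and were not called in the cachectic one, and within the high state no gene was called in the non-cachectic diaphragm. Gm3411 gave 1.58 (SE 0.30, adjusted p = 0.0321), at medians of 0.0283 and 0.782 TPM in cachectic and 1.06 and 0.0888 TPM in non-cachectic mice. With library state as a term limma called 0 genes (795 at an unadjusted p under 0.05), with the clock index 0 (501) and within the high state 0 (461). It also called 0 without mock library Dia8 (874), Dia20 (1075), Dia34 (957) or Dia35 (1074). None of the interferon-inducible or glucocorticoid genes named here was among the 3.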

How the data were processed

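RNA from diaphragm of tumour-bearing mice was sequenced, and the authors trimmed and aligned the reads to GRCm38 (mm10) with CLC Genomics Workbench and deposited gene-level TPM, which add up to the same total in every library. The annotation version is not given in the sources used here, and the library kit and instrument named in the labels differ from those in the methods of the study, so that the strand setting is not known. Depth cannot be read from TPM and is unknown. The table held 47643 gene symbols in 59 libraries. Its column names give the group of each library but not its labelled replicate number.

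Values were taken as log2(TPM + 1) and fitted with limma 3.58.1 (R 4.3.3), with mean-variance trend, over all 39 diaphragm libraries in 4 groups, keeping genes at 1 TPM or more in at least 9 libraries. The rFibcd1 minus mock contrast in cachectic mice was tested with Benjamini-Hochberg adjustment over all genes, a call being an adjusted p under 0.05. The fit was repeated in the 26 libraries with Pcna-ps2 above 3 TPM, keeping genes at 1 TPM or more in at least 3. An interaction compared the cachectic with the non-cachectic effect. The 2 cachectic contrasts share libraries. The share of mitochondrially encoded TPM was compared by a two-sided permutation test. The script was tested on simulated data.

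Named genes were all called genes over all libraries, the 10 highest and 10 lowest fold changes (mean TPM of at least 5) over all libraries at an unadjusted p under 0.05 and among called genes in the repeat, genes named by the study, and up to 4 called members per list (else up to 2 with the lowest p). Ifng, Cd3e, Glul, Wnt4, Zkscan1, Gprasp1, Ccbl1 and the interaction genes were, where outside that rule, chosen after their values were seen. Members and lists were chosen with earlier results of these data known. The labels call the samples of a group biological replicates. Promoter sequences were from RefSeq (GRCm38.p6), and gene positions from GENCODE. Alternatives were another pseudocount, other filters, scalings and array weights, 2 groups alone, Dunn tests, the thresholds of the study, terms for clock genes and library state, and leaving out each library. List counts without each library were added after seeing the data.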

Additional observations from a re-analysis of the deposited data

Results flagged for a closer look

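Of 90 groups (45 genes in the cachectic mock and rFibcd1 groups) 7 had a library at the end of the range farther from its nearest neighbour than Dixon's 95% limit, and chance gives about 1 in 20 for a single group. The groups share libraries and are not independent, and many of the genes were picked for their values. That rate therefore cannot judge the count of 7. Skp1a was lowest in mock library Dia20, at 104.7 TPM, and Klf15 was highest there, at 243.6 TPM. Mock library Dia10 held the highest Tgtp1 (37.5 TPM), Tgtp2 (33.2 TPM) and Cd274 (19.8 TPM) of its group. Among the rFibcd1 libraries Dia3 held the highest Ctsf, at 44.6 TPM, and the lowest Gm4737, listed at 0.

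The rFibcd1 effect differed between the cachectic and the non-cachectic diaphragm by the limma interaction in Irf2bp2 (-0.86 on the log2 scale), Ypel2 (-0.93) and Gm3411 (1.58).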

How the results depend on the processing

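Over all cachectic libraries the 6 called genes became 27 (15 higher, 12 lower) with median-ratio scaling, which held Meox1 and Bcl6b of the 6, 46 (14 and 32) with quantile normalization, 603 with array weights, 207 at the thresholds of the study, 18 with library state as a term, and 0 with the clock index (1085 at an unadjusted p under 0.05), the 2 groups alone or Dunn tests. Leaving out 1 library gave 0 to 127. In the high state 789 became 407 without a filter, 369 with median-ratio scaling, 274 (90 higher, 184 lower) with quantile normalization, 1690 with array weights, 45 with the clock index, and 0 with the 2 groups alone or Dunn tests. Leaving out 1 library gave 29 to 3003. The 3 interaction genes became 1 without a filter, 150 with array weights, 193 at the thresholds of the study, and 0 with the clock index, library state or the high state alone; leaving out 1 library gave 0 to 4. The cause of these changes was not tested.

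The mitochondrial share difference turned to 0.0204 points in the high state, to 0.0712 without rFibcd1 library Dia4 and to 0.392 without Dia11, with a range of -1.46 to 0.392. Itga2b turned to 0.0018 with array weights and to 0.0210 in the high state without mock library Dia8 (-0.20 to 0.0210 over the libraries left out). No other value of a named gene turned direction under the alternatives run. Depth is unknown, so genes of low TPM, such as Ifng, rest on an unknown number of reads. No paired analysis was possible because the columns carry numbers of their own and not the labelled replicate numbers.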
